A study of Mus musculus with 20 samples.

Results

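The 9 myelin genes Mbp, Mobp, Mog, Mag, Cnp, Mal, Cldn11, Car2 and Ugt8a were followed through the hippocampus and the cortex of mice given 1 of 2 chaperone proteins. They were given as a list of names, and are 9 of the 55487 gene entries that were counted. All animals were NMRI mice whose olfactory bulbs had been removed, and their age is not given in the sources used here. From day 14 after surgery they received a daily intranasal dose for 21 days, either 4 µg of human recombinant HSP70 or 6.4 µg of recombinant YB-1. The 20 libraries, made from poly(A) RNA with a directional kit, formed 4 groups of 5, namely hippocampus with HSP70, hippocampus with YB-1, cortex with HSP70 and cortex with YB-1. Unoperated or vehicle-treated animals were not analysed here, so each treatment comparison sets one chaperone against the other. The libraries of a group carry separate labels, and nothing in the labels states which animal each came from, so p-values measure the spread between these libraries.

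Myelin is the stack of membrane that oligodendrocytes wrap around axons in the brain. Its compact part is held together by basic and membrane-spanning proteins, its innermost and outermost turns carry adhesion and surface proteins, and its membrane is rich in cholesterol and galactolipids made by enzymes of the oligodendrocyte. Mbp encodes myelin basic protein, which joins the inner faces of the membrane. Mobp encodes a further basic protein of compact myelin, Mal a raft proteolipid and Cldn11 the claudin of the tight junctions between the turns. Mag encodes the adhesion molecule that faces the axon, and Mog a protein of the outermost turn. Among the enzymes, Cnp encodes the cyclic nucleotide phosphodiesterase of non-compact myelin, Car2 a cytosolic carbonic anhydrase of oligodendrocytes and some other cells, and Ugt8a the transferase that makes galactosylceramide.

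RefSeq promoter windows (GRCm38.p6, 250 bases before to 50 after a transcription start) were matched by symbol and used for 7 of the 9 genes, as 9 windows. They were searched on both strands for AACAAAG, a core recognised by SOX factors such as SOX10, for CTGGCAC, a core of the myelin regulatory factor MYRF, for the E-box CAGCTG, for the GC box GGGCGG and for TATAAA. No pair of these motifs contains the other, and copies of one motif could overlap. The upstream 250 bases are shown for the 3 members that held a SOX or MYRF match, with matches in capitals. In Mobp the capitals mark 4 copies of AACAAAG read from the opposite strand. In Cnp they mark, in order, a SOX core, a MYRF core and 2 GC boxes on the opposite strand, and in Mag, at the most upstream of its 3 annotated starts, a MYRF core.
Mobp, chr9:120149492-120149741, plus strand: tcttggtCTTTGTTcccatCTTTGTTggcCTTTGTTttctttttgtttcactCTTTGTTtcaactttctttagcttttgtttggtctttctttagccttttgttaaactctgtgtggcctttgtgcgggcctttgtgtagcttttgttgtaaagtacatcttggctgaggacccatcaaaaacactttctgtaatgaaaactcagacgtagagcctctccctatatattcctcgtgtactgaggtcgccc
Cnp, chr11:100574689-100574938, plus strand: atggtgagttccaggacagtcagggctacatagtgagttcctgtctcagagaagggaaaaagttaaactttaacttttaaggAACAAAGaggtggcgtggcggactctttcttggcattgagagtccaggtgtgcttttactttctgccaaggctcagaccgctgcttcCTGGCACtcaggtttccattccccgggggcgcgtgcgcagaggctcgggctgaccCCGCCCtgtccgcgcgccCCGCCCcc
Mag, chr7:30914923-30915172, minus strand: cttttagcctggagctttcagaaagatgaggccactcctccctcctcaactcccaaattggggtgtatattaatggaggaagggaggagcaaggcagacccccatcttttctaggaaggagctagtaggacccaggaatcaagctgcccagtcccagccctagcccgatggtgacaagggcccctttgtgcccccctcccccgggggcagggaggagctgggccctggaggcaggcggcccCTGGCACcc

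The SOX core was in 2 of the 9 member windows, those of Mobp and Cnp, against 5.85% of the 32851 windows of all genes. The MYRF core was in 3 member windows, 1 of Cnp and 2 overlapping windows of Mag that hold the same site, against 5.01% of all windows, and the GC box in 3, of Cldn11, Ugt8a and Cnp, against 35.7%. Neither CAGCTG (16.3% of all windows) nor TATAAA (13.6%) was in a member window. The 4 copies in Mobp begin 243, 231, 221 and 198 bases before the start. The MYRF core begins 81 bases before the start in Cnp and 9 before the most upstream start in Mag. A match is a description of the letters in the window and was not tied to binding here.

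Between 6414215 and 15148078 reads per library were assigned to genes, and the cortical groups did not overlap in depth (12283392 to 15148078 with HSP70, 6414215 to 10763465 with YB-1). All 9 myelin genes passed the filter on low counts, and the lowest count was 21 reads, for Ugt8a in a cortical YB-1 library. The tissue labels were set against regional markers written together with the other lists, with earlier results of these data known. The summed level of 8 cortical markers was 158 to 235 CPM in the hippocampal and 413 to 505 CPM in the cortical libraries (CPM, read counts scaled to library size by TMM). Of these 8, 6 were called lower in the hippocampus with HSP70 and 5 with YB-1, while 2 and 1 were called higher there. Of 7 tested hippocampal markers, 5 were called higher in the hippocampus in each treatment and none lower. Of 14616 genes tested, 709 (4.85%) and 483 (3.3%) were called higher there with HSP70 and YB-1, and 550 and 469 lower. The summed level of 8 hippocampal markers overlapped between tissues. It was 631 to 833 CPM in the hippocampal and 478 to 689 CPM in the cortical libraries. The 5 markers of Schwann cells, which make peripheral myelin, summed to 0.902 to 8.95 CPM, with Pmp2 at 0 in 20 libraries.

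Levels of the myelin genes were compared with each other per kilobase of exon. Mbp was highest in each group, at 414 ± 109 CPM per kb in the hippocampus with HSP70 and 339 ± 41.9 with YB-1, and at 132 ± 32.4 and 157 ± 25.3 in the cortex (SD, n = 5). Cnp was second and Mag the third in each group, with Cnp at 157 ± 52.4 and Mag at 101 ± 28.3 CPM per kb in the hippocampus with HSP70, where their ranges overlapped. Cldn11, Mog and Mobp followed in the hippocampus, at 71.6, 65.7 and 57.2 CPM per kb with HSP70, and neighbours among them overlapped in both treatments. In the cortex Car2 stood among these 3, at 24 CPM per kb with HSP70 and 19.5 with YB-1. Ugt8a was lowest in each group, at 2.99 ± 1.21 CPM per kb in the hippocampus and 1.58 ± 0.259 in the cortex with HSP70. Its range overlapped no other member. The 9 genes together took 0.397% to 0.742% of assigned reads in the hippocampal and 0.15% to 0.219% in the cortical libraries, and Mbp made up 56.3% to 70.3% of their summed CPM.

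All 9 myelin genes were higher in the hippocampus than in the cortex, with HSP70 and with YB-1. With HSP70 the hippocampal level was between 1.66-fold (Car2) and 3.28-fold (Mobp) that of the cortex, and with YB-1 between 1.56-fold (Car2) and 2.5-fold (Mobp). The question is whether the tissues carry different amounts of myelin RNA, and in bulk tissue more oligodendrocytes and more RNA per oligodendrocyte cannot be told apart. Each of the 9 passed edgeR's quasi-likelihood test at an adjusted p of 0.05 in both treatments, where 4.85% of 14616 genes were called higher with HSP70 and 3.3% with YB-1. The median log2 difference over the 9 was 1.42 with HSP70 and 1.11 with YB-1, beside 0.0055 and 0.0024 over all genes tested. Hippocampal and cortical libraries did not overlap for 8 of the 9 with HSP70 (4.74% of all genes in that direction) and for 6 with YB-1 (3.35%). The exceptions were Ugt8a with HSP70, and Mag, Car2 and Ugt8a with YB-1.

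**Figure D1:**
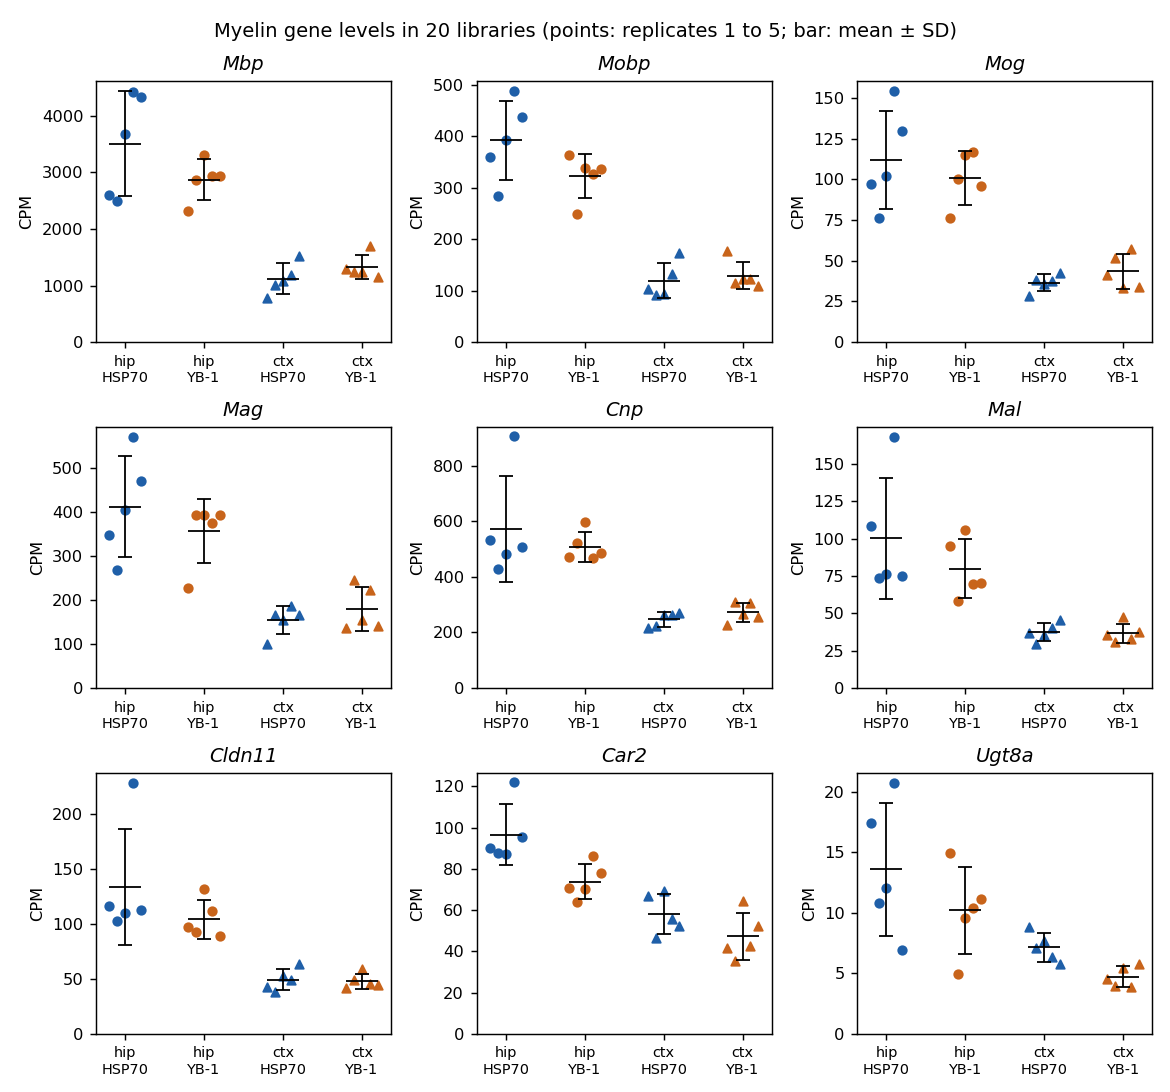
Level of each myelin gene in CPM (vertical axis, linear from 0) in the 5 libraries of each of 4 groups, hippocampus (hip, circles) and cortex (ctx, triangles) with HSP70 (blue) or YB-1 (orange). Points are libraries in the order of replicates 1 to 5 and bars the mean ± SD, and the hippocampal means lie above the cortical ones in each panel, with Car2 closest (96.5 against 58 CPM with HSP70).

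Of the genes of compact myelin, Mbp stood at 2596, 2492, 3682, 4423 and 4336 CPM in hippocampal replicates 1 to 5 with HSP70. With YB-1 it was at 2320, 2859, 3308, 2943 and 2934 CPM. Cortical Mbp was at 775, 1009, 1084, 1190 and 1525 CPM in the HSP70 group and at 1297, 1246, 1246, 1698 and 1147 CPM in the YB-1 group. Every hippocampal library was above every cortical one. The log2 difference between tissues was 1.65 ± 0.18 (SE) with HSP70 and 1.11 ± 0.18 with YB-1, with adjusted p-values of 6.46e-07 and 0.000163 in edgeR.

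Mobp, the member with the largest fold difference in both treatments, ranged from 285 to 487 CPM in the hippocampus and from 92.5 to 174 CPM in the cortex with HSP70. With YB-1 the ranges were 249 to 364 and 110 to 176 CPM. Its fold was 3.28 (95% interval 2.54 to 4.25) with HSP70 and 2.5 (1.93 to 3.23) with YB-1. Mal and Cldn11, the raft proteolipid and the claudin, were 2.68 and 2.72 times the cortical level with HSP70 and 2.18 times with YB-1 in both cases. Mal lay between 58.3 and 168 CPM in the 10 hippocampal and between 29.5 and 47.3 CPM in the 10 cortical libraries. For Cldn11 the corresponding ranges were 88.8 to 228 and 38.1 to 63.5 CPM. None of these genes had a hippocampal library at a cortical level.

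The surface proteins Mag and Mog differed in the same direction. Mag stood at 348, 270, 405, 571 and 470 CPM in the hippocampus and 101, 165, 154, 187 and 167 CPM in the cortex with HSP70. With YB-1 its hippocampal values were 227, 394, 394, 376 and 395 CPM and its cortical values 137, 245, 156, 223 and 141 CPM, so hippocampal replicate 1 fell below cortical replicate 2. Its fold was 2.67 (1.97 to 3.6) with HSP70 and 1.98 (1.47 to 2.67) with YB-1. Mog, at 76.4 to 154 CPM in the hippocampus and 28.1 to 56.9 CPM in the cortex over both treatments, was 3.06 and 2.33 times the cortical level.

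Cnp, the first of the enzymes, was at 530, 429, 481, 905 and 506 CPM in the hippocampus and 214, 223, 262, 263 and 270 CPM in the cortex with HSP70. With YB-1 it ranged from 467 to 597 CPM in the hippocampus and from 228 to 309 CPM in the cortex. Replicate 4 of the hippocampal HSP70 group was far above its group, and the tissues did not overlap. Its fold was 2.31 with HSP70 and 1.86 with YB-1. Reads of the antisense gene Dnajc7, which overlaps Cnp and averaged 768 reads a library beside 4009 for Cnp, cannot be told apart from it with certainty, since the strand setting of the counting is not given in the sources used here.

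Car2 had the smallest tissue difference of the 9. With HSP70 it was at 89.9, 87.5, 87.2, 122 and 95.4 CPM in the hippocampus and 66.6, 46.5, 69.2, 55.6 and 52.3 CPM in the cortex. With YB-1 its values were 70.6, 64, 70.3, 86.1 and 78 CPM in the hippocampus and 41.6, 35.1, 64.5, 42.6 and 52.4 CPM in the cortex, and the tissues overlapped by 1 library on each side. Its fold was 1.66 (1.33 to 2.07) with HSP70, whose interval lies below that of Mobp, and 1.56 (1.25 to 1.95) with YB-1. The difference between Car2 and the other members was not tested.

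Ugt8a was at 17.4, 10.9, 12, 20.7 and 6.91 CPM in the hippocampus and 8.8, 7.11, 7.69, 6.31 and 5.81 CPM in the cortex with HSP70. With YB-1 it was at 15, 4.96, 9.6, 10.4 and 11.1 CPM in the hippocampus and 4.55, 3.93, 5.46, 3.85 and 5.75 CPM in the cortex. In both treatments 1 hippocampal library lay among the cortical ones. The fold was 1.91 (1.31 to 2.79, adjusted p = 0.0259 in edgeR) with HSP70 and 2.15 (1.45 to 3.2, adjusted p = 0.0135) with YB-1. This was the only member whose call was lost under an alternative. With HSP70 it was lost without hippocampal replicate 1 (adjusted p = 0.0617) or 4 (0.118) and without cortical replicate 2 (0.0537), 4 (0.0645) or 5 (0.0709), and with YB-1 without hippocampal replicate 1 (0.0527).

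**Figure D2:**
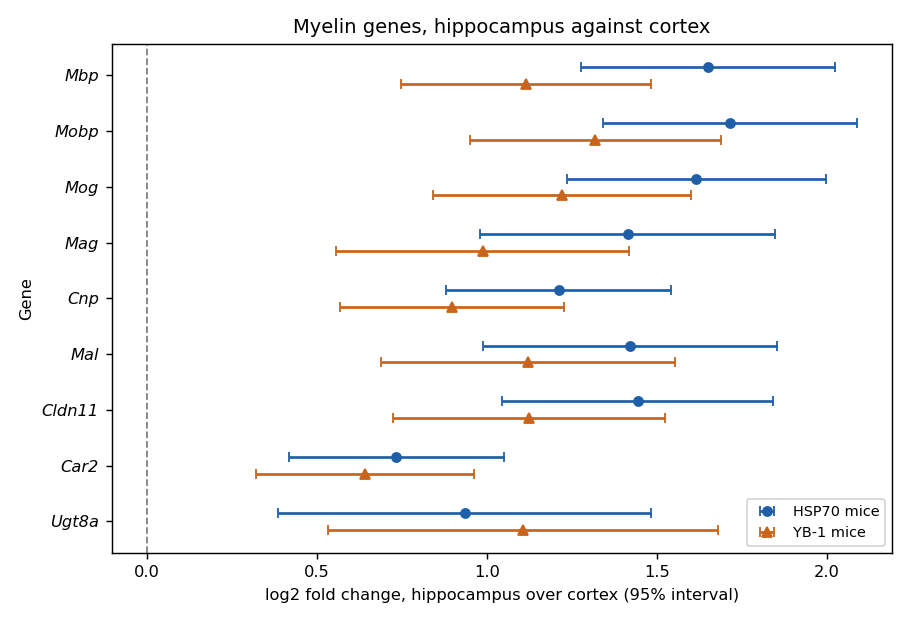
Log2 fold change of hippocampus over cortex (horizontal axis) for each myelin gene, with 95% intervals from edgeR, in HSP70 (blue circles) and YB-1 (orange triangles) mice. All 18 intervals lie above 0, and Car2 has the smallest estimate in both treatments (0.73 and 0.64).

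Markers of some other cells and regions differed between tissues too. Summed choroid plexus markers were at 35.1 to 1619 CPM in the hippocampal libraries with HSP70, 133 to 984 CPM with YB-1 and 7.71 to 155 CPM in the cortical ones, with 3 of 6 called higher in the hippocampus with HSP70 and 5 with YB-1. Summed thalamic markers were at 35.7 to 78.5 CPM in the hippocampus and 22.6 to 34.8 CPM in the cortex, with 2 of 5 called higher in the hippocampus in each treatment. Summed neuronal markers were lower in the hippocampus, at 2154 to 2936 CPM against 2864 to 3861 CPM, and 2 of 8 were called lower there with HSP70 and 1 with YB-1. Of all 14616 genes tested, 4.85% and 3.3% were called higher in the hippocampus with HSP70 and YB-1, and 550 and 469 genes lower. Of 8 astrocyte markers 1 was called higher in the hippocampus with HSP70 and 0 with YB-1. Of 8 microglial and 6 endothelial markers 0 were called in either treatment. Of 8 meningeal markers 1 was called higher in each treatment and 2 lower with YB-1, and of 6 striatal markers 1 was called lower in each. The part of all these markers in the myelin gene differences was not tested.

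Same-numbered hippocampal and cortical libraries deviated from their group means together (the check is given with the processing). Each number was therefore read as 1 animal, which is an assumption that the labels do not state. In all 10 animals each of the 9 myelin genes was higher in the hippocampus than in the cortex of the same number, 90 ratios of 90. For the 8 genes with HSP70 and 6 with YB-1 whose tissues did not overlap, any pairing gives ratios above 1. The 9 genes also share libraries, so the ratios are not 90 separate observations. The ratios ran from 1.09, for Car2 with YB-1, to 4.65, for Cldn11 with HSP70. For Mbp the median ratio was 3.35 (2.47 to 3.72) with HSP70 and 2.29 (1.73 to 2.65) with YB-1. For Mag it was 2.82 (1.63 to 3.45) and 1.69 (1.61 to 2.8), and for Ugt8a 1.56 (1.19 to 3.29) and 1.93 (1.26 to 3.29). With the animal as a block, the 9 were again called higher in both treatments.

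**Figure D3:**
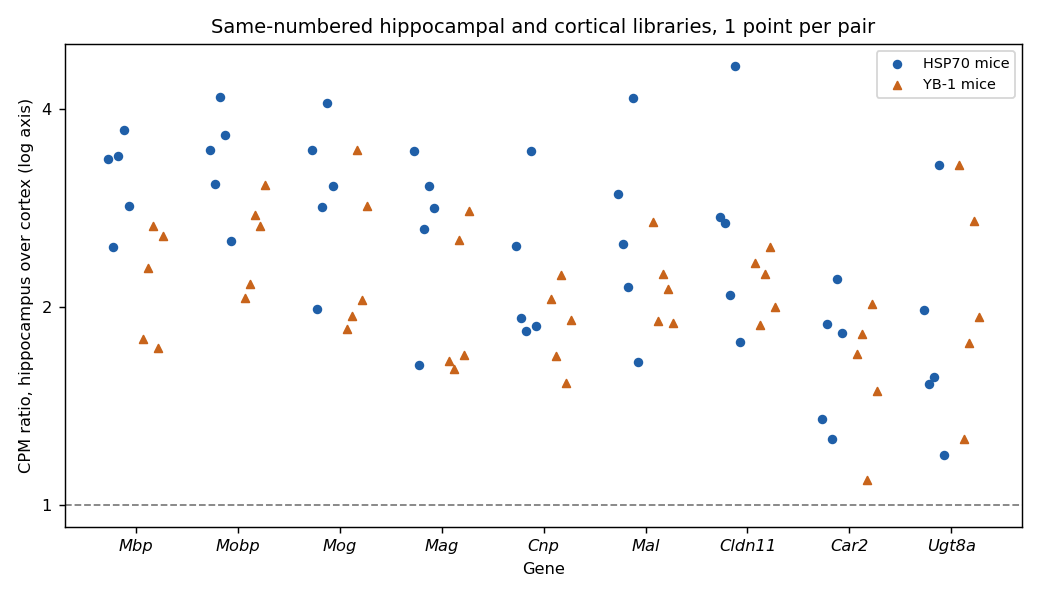
Ratio of hippocampal to cortical CPM (vertical log axis) for each myelin gene, 1 point for each pair of same-numbered libraries, HSP70 as blue circles and YB-1 as orange triangles. All 90 points lie above the dashed line at 1, from 1.09 to 4.65.

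Whether an animal's hippocampal level went with its cortical level was tested for each gene. Log2 CPM of each gene, centred on the treatment means, was correlated over the 10 animals, with two-sided exact permutation within treatment (every order of the animals, smallest possible p 6.94e-05) and adjustment over the 9 genes. Pearson's r ran from 0.03 for Car2 (exact p = 0.932, adjusted 0.932) to 0.65 for Mobp (exact p = 0.0633, adjusted 0.477). For Mobp Spearman's rho was 0.81 (exact p = 0.0186, adjusted 0.168), and r was 0.67 (exact p = 0.146) without the 2 animals farthest from the median. For Mbp r was 0.62 (exact p = 0.113, adjusted 0.477) and rho 0.72 (exact p = 0.0574, adjusted 0.198). Without the 2 animals farthest from the median for Mbp, r was 0.42. Within treatments r for Mbp was 0.81 over the HSP70 and -0.014 over the YB-1 animals, and for Mobp 0.71 and 0.52. None of the 9 passed after adjustment.

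In the hippocampus no myelin gene passed edgeR's test between YB-1 and HSP70, and 0% of the 13723 genes tested were called. All 9 estimates were below 0, meaning lower with YB-1, from -0.15 for Mog to -0.42 for Ugt8a on the log2 scale. Their median was -0.29 (-0.16 with limma-voom), while 50.7% of all genes were below 0. The 9 genes share libraries, so this is 1 set of animals and not 9 separate observations. The adjusted p was 1 for each. At an unadjusted p under 0.05, 194 genes were higher and 135 lower, and DESeq2 and limma-voom also called 0 genes.

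Car2 had the smallest p of the 9. The values listed above give hippocampal means of 96.5 ± 14.8 CPM for HSP70 and 73.8 ± 8.5 CPM for YB-1 (SD, n = 5). The groups did not overlap, the lowest HSP70 library being at 87.2 and the highest YB-1 library at 86.1 CPM, as was so for 0.299% of all genes in that direction. The log2 difference was -0.39 ± 0.13 (SE, 95% interval -0.67 to -0.1), with an unadjusted p of 0.0106, as 0.984% of all genes were lower at an unadjusted p under 0.05, and an adjusted p of 1 in edgeR. For Mbp the means were 3506 ± 924 and 2873 ± 355 CPM, and the log2 difference was -0.29 (95% interval -0.65 to 0.075). The interval for Ugt8a, -1.07 to 0.24, was the widest.

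The hippocampal estimates moved with 1 library. Replicate 4 of the HSP70 group had the highest level of its group for 9 of 9 myelin genes, among them Cnp at 905 CPM beside 429 to 530 in the others and Cldn11 at 228 CPM beside 102 to 116. Without it, the median of the 9 moved from -0.29 to -0.078. Mog was then at -0.0078, Mag at -0.064, Mal at -0.06, Cldn11 at -0.078 and Cnp at 0.062, while Mbp and Mobp were at -0.19, Ugt8a at -0.21 and Car2 at -0.29. The same library was the deepest hippocampal one (13053910 reads) and had the highest summed thalamic (78.5 CPM, others of its group 41.5 to 49.4) and meningeal markers (180 CPM, others 139 to 173). It was also highest of its group for microglial (1564 CPM, others 849 to 1256), endothelial (185, others 141 to 176) and astrocyte markers (5040, others 4550 to 4856). For neuronal, choroid plexus and striatal markers another library was highest. Summed meningeal markers did not overlap between hippocampal HSP70 (139 to 180 CPM) and YB-1 libraries (105 to 136 CPM). All 8 of their estimates were below 0 with YB-1 (50.7% of all genes), none of them called. In the same comparison 6 of 6 endothelial and 7 of 8 microglial estimates were above 0, none called either. The part of these markers in the myelin values was not tested. The spread was wider with HSP70, with a median coefficient of variation over the 9 genes of 27.9% against 16.2% with YB-1. The HSP70 value includes replicate 4 and was not taken without it.

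In the cortex no myelin gene passed between YB-1 and HSP70 either, with 0% of 14114 genes called. The 9 estimates split. Mbp (0.25), Mog (0.24), Mag (0.22), Cnp (0.15) and Mobp (0.12) were above 0, and Mal (-0.033), Cldn11 (-0.041), Car2 (-0.3) and Ugt8a (-0.59) below it, where 49.1% of all genes were below 0. The median was 0.12, beside 0.005 over all genes, and it was 0.0054 without YB-1 replicate 1, 0.037 without HSP70 replicate 2, 0.041 without HSP70 replicate 3, 0.065 without HSP70 replicate 1, 0.18 without HSP70 replicate 5 and -0.0199 with limma-voom. Adjusted p-values of the 9 ran from 0.858 to 0.982 in edgeR. At an unadjusted p under 0.05, 426 genes were higher and 348 lower. DESeq2 called 4 genes and limma-voom 1, none of them a myelin gene.

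Ugt8a, the galactosylceramide enzyme, had the largest difference of the 9 in the cortex. The mean was 7.15 ± 1.18 CPM for HSP70 and 4.71 ± 0.867 CPM for YB-1 (SD, n = 5), and the lowest HSP70 library (5.81) was just above the highest YB-1 library (5.75), as in 0.517% of all genes in that direction. The log2 difference was -0.59 ± 0.22 (SE, 95% interval -1.05 to -0.13), with an unadjusted p of 0.0144 and an adjusted p of 0.858 in edgeR, and 2.47% of all genes were lower at an unadjusted p under 0.05. These values rest on 80 to 127 reads with HSP70 and 21 to 61 reads with YB-1. With all cortical libraries thinned to the lowest depth the difference was -0.64. The highest cortical Mbp level, 1698 CPM in YB-1 replicate 4, came from the library with the highest summed striatal markers (652 CPM, others of its group 168 to 243). Without that library the Mbp difference was 0.14, and the part of the striatal markers was not tested.

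**Figure D4:**
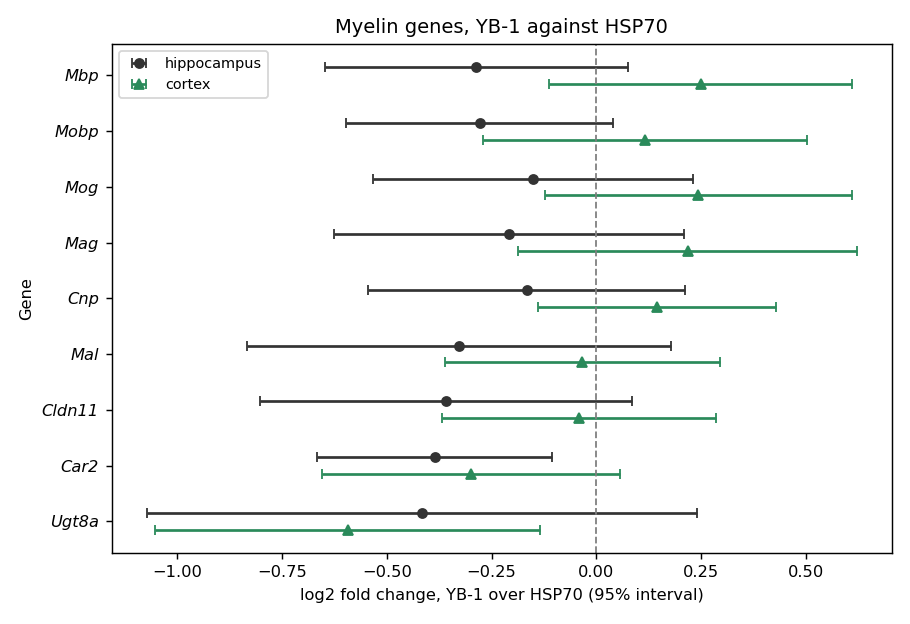
Log2 fold change of YB-1 over HSP70 (horizontal axis) for each myelin gene in hippocampus (black circles) and cortex (green triangles), with 95% intervals from edgeR. All hippocampal estimates are below 0, from -0.15 to -0.42, and the only intervals that do not cross 0 are those of Car2 in the hippocampus and Ugt8a in the cortex, neither of which passed after adjustment.

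Whether the treatment difference differed between tissues was tested as an interaction over all 20 libraries, and it uses the same libraries as the comparisons above. No myelin gene passed, and 0% of 14616 genes were called. At an unadjusted p under 0.05, 103 genes were above and 124 below 0, and DESeq2 and limma-voom called 0. The interaction was below 0 for 8 of the 9 (51.4% of all genes), meaning a lower YB-1 to HSP70 ratio in the hippocampus than in the cortex, and was 0.17 for Ugt8a. Mbp had the largest estimate, -0.54 ± 0.25 (SE, 95% interval -1.05 to -0.022), with an unadjusted p of 0.0417 and an adjusted p of 1 in edgeR, and 0.848% of all genes were below 0 at an unadjusted p under 0.05. The median of the 9 was -0.32, and it was -0.083 without hippocampal HSP70 replicate 4 and -0.13 with limma-voom. By group mean, hippocampus with HSP70 ranked first and hippocampus with YB-1 second for each gene. Those neighbours overlapped except for Car2. The cortical groups overlapped except for Ugt8a.

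Within groups most of the myelin genes varied together, with Car2 and Ugt8a the least alike to the rest. Log2 CPM was centred on the 4 group means, and Pearson's r between members was taken over the 20 libraries as a description, in which genes share library and depth. Of 36 pairs 30 were above 0, with a median r of 0.45. Mog and Mag (0.89), Mbp and Mog (0.82) and Mbp and Mag (0.77) were close, as were Cnp and Cldn11 (0.85) and Mal and Cldn11 (0.82). Cnp was also near Mag and Mog (0.7 each) and Mbp (0.6), beside 0.65 with Mal. Ugt8a was nearest to Mal (0.64) and Car2 (0.49), and below 0 with Mbp (-0.35), Mag (-0.33) and Mog (-0.26). Against the mean of the other 8, Cldn11 had r = 0.87, Cnp 0.84, Mal 0.7, Mbp 0.57, Mog 0.55, Mobp 0.51, Mag 0.43, Car2 0.29 and Ugt8a 0.13. Without hippocampal HSP70 replicate 4 these were 0.76, 0.67, 0.5, 0.53, 0.4, 0.45, 0.27, 0.048 and -0.19. The values of the 36 pairs include that library.

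**Figure D5:**
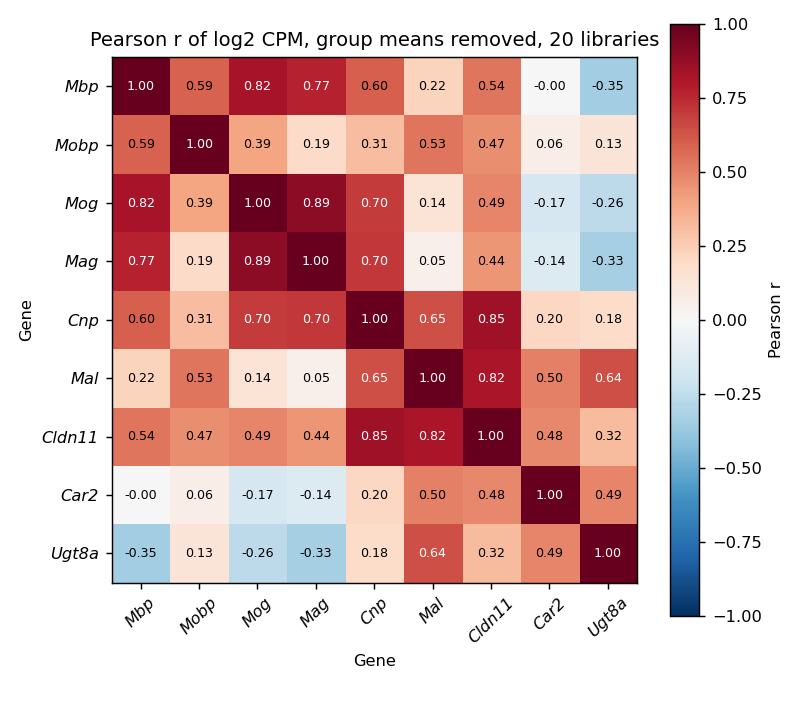
Pearson r of log2 CPM between the 9 myelin genes (both axes) over 20 libraries after removing the 4 group means, with colour and printed value giving r. Mbp, Mog and Mag are at 0.77 to 0.89 with each other, Cnp is at 0.6 to 0.7 with these 3 and at 0.65 and 0.85 with Mal and Cldn11, and Ugt8a is below 0 with Mbp, Mog and Mag.

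The 10 genes most like the mean of the 9, measured in the same way over 20 libraries among 13971 genes with a mean of at least 1 CPM (median r 0.0066), began with Ndrg1 (0.84), Olig1 (0.82), Gpr37 (0.8), Ccdc85c (0.8) and Ttyh2 (0.79). Trf, the iron carrier transferrin (mean 641 CPM), Fa2h, which hydroxylates the fatty acids of myelin lipids, Rasip1, Gpr151 and Gjc1 followed at 0.77. Olig1 encodes an oligodendrocyte transcription factor and Gpr37 a receptor of myelinating cells. Gpr151 and Gjc1 were near the lower limit of expression, at 1.03 and 2.21 CPM. Without hippocampal HSP70 replicate 4 the 10 values were between 0.62 (Gpr151) and 0.82 (Ndrg1). By list, the median r was 0.4 for sheath genes and for lineage transcription factors, both described below, and 0.29 for myelin lipid genes. Thalamic markers were close to these, at 0.39 (5 genes, 0.35 to 0.55), with choroid plexus markers at 0.33 and meningeal ones at 0.32. Neuronal (-0.064), cortical (-0.017) and hippocampal markers (0.047) were lower. The part of these markers in the likeness was not tested.

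The wider myelin pathway was read from 5 lists that do not contain the 9 genes. Like the 9, these lists were chosen with earlier results of these data known. Of 19 tested genes of the sheath, 13 were called higher in the hippocampus with HSP70 and 12 with YB-1, where 4.85% and 3.3% of all genes were called higher, and none was called lower. By estimate alone 18 and 17 were above 0, and the medians were 1.08 and 0.91. Bcas1, a marker of newly myelinating oligodendrocytes, differed by 1.36 ± 0.16 (SE) with HSP70 and 1.04 ± 0.16 with YB-1. Nfasc, a neurofascin that neurons make too, differed by 0.21 and 0.11 and did not pass (adjusted p = 0.357 and 0.782 in edgeR).

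Of 10 transcription factors of the lineage, 7 were called higher in the hippocampus with HSP70 and 3 with YB-1 (4.85% and 3.3% of all genes), and 10 and 9 had estimates above 0. Myrf, which drives myelin genes, differed by 1.65 ± 0.18 and 1.02 ± 0.18, close to Mbp, and passed in both. Sox10 and Olig1 passed with HSP70 (1.04 and 0.64) and not with YB-1 (0.5 and 0.39, adjusted p = 0.231 and 0.0944 in edgeR). The interaction was -0.62 for Myrf (unadjusted p = 0.0213 in edgeR), -0.54 for Sox10 and -0.25 for Olig1, each with an adjusted p of 1, so a tissue difference that differs between treatments is not shown for them.

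Of 10 genes of myelin lipid synthesis, 6 were called higher in the hippocampus with HSP70 and 3 with YB-1 (4.85% and 3.3% of all genes), and 9 had estimates above 0 in each. Cers2, the ceramide synthase of very long chains, differed by 0.92 and 0.52 and passed in both, and Degs1, a ceramide desaturase, by 0.4 (passed) and 0.37 (adjusted p = 0.0612 in edgeR). Enpp2, also abundant in choroid plexus, differed by 1.58 and 1.9 with SEs of 0.58 and 0.59 and did not pass. None of the 15 genes of cholesterol synthesis was called in either treatment, with medians of -0.054 and -0.047. Fdft1, the squalene synthase, and Sqle, the squalene epoxidase, differed by -0.05 and 0.05 with HSP70. Of 14 genes of oligodendrocyte precursors, 2 were called higher with HSP70, among them C1ql1 (0.8), and 0 with YB-1 (4.85% and 3.3% of all genes), and 10 and 8 had estimates above 0. Ptprz1 (-0.0014 with HSP70) and Tnr (0.02) did not pass.

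None of these 5 lists had a gene called between YB-1 and HSP70 in either tissue or in the interaction. In the hippocampus 15 of 19 sheath genes and 7 of 9 tested transcription factors were below 0 (50.7% of all genes), with medians of -0.12 and -0.11. Of the lipid, cholesterol and precursor lists 6 of 10, 10 of 14 and 6 of 13 tested genes were below 0. Hippocampal HSP70 replicate 4 had the highest sum of its group for the sheath and transcription factor lists. In the cortex 13 of 19 sheath genes and 6 of 10 transcription factors were above 0, with medians of 0.044 and 0.14. The lipid, cholesterol and precursor lists had 5 of 10, 5 of 15 and 9 of 14 above 0, and 49.1% of all genes were below 0. Bcas1 was at -0.06 in the hippocampus and 0.25 in the cortex, and Myrf at -0.11 and 0.51, both cortical values with an adjusted p of 0.858 in edgeR.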

How the data were processed

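The authors deposited raw read counts by Ensembl identifier for each of 20 libraries, with 55487 gene entries and 12 summary entries that were left out. The tools, per the submitters' processing notes, were Trimmomatic, STAR and featureCounts on the GRCm39 build. For their versions, the annotation and the strand setting, nothing is given in the sources used here. Symbols (99.5% of identifiers, 99.99% of reads) and exon lengths came from GENCODE M21, which annotates the earlier assembly, so no gene coordinates are printed other than those of RefSeq promoter windows.

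The test of the counts was that of edgeR 4.0.16 (R 4.3.3, TMM scaling, filterByExpr, robust quasi-likelihood F-test, two-sided, Benjamini-Hochberg over all genes tested, threshold 0.05). Treatments were compared within a tissue, and tissues and the interaction in a model of the 4 groups. CPM use TMM scaling over 20 libraries, and log2 CPM a prior count of 2. SEs are the log2 fold change divided by the root of F. The script was tested on simulated data. Alternatives were other size factors, no filter, DESeq2 1.42.0, limma-voom (limma 3.58.1) with quality weights, leaving out Bc1 and immunoglobulin genes, thinning to the lowest depth, a replicate block and leaving out each library.

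The 9 genes and the lists were chosen with earlier results of these data known. The genes named are the 9, the 3 most abundant of each pathway list and the 10 most alike in profile, apart from a few that are not reported here. Marker lists are given as sums.

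Whether equal replicate numbers pair libraries was checked by correlating deviations from group means over 14616 genes. Between the tissues all 10 pairs were above 0.1 (0.198 to 0.624 with HSP70 and 0.207 to 0.394 with YB-1), so equal numbers were taken to pair the tissues. A hippocampal library was most like the cortical one of its own number in 5 of 5 cases with HSP70 and 4 of 5 with YB-1. Between treatments equal numbers did not pair as a set. There 1 of 5 pairs was above 0.1 in the hippocampus (-0.283 to 0.496) and 3 of 5 in the cortex (-0.135 to 0.167). Those pairs come from different animals, so a value above 0.1 does not by itself show a shared animal.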

Additional observations from a re-analysis of the deposited data

Results flagged for a closer look

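In 6 of 36 gene and group combinations the highest or lowest library stood apart from the other 4, with a gap to its nearest neighbour of more than 0.71 of the group's range. For a single group of normally distributed values, chance gives about 1 in 20. The combinations share libraries and the genes vary together, so 6 of 36 cannot be set against that rate. Replicate 4 of the hippocampal HSP70 group accounts for 3 of them: Cnp at 905 CPM (others 429 to 530), Cldn11 at 228 CPM (102 to 116) and Car2 at 122 CPM (87.2 to 95.4). Mag was at 227 CPM in hippocampal YB-1 replicate 1 (others 376 to 395). In the cortical YB-1 group Mbp was at 1698 CPM in replicate 4 (others 1147 to 1297) and Mobp at 176 CPM in replicate 1 (others 110 to 123).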

How the results depend on the processing

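Over the alternatives, the tissue differences of the myelin genes kept their direction in 243 of 243 refitted values in each treatment, and their side of the threshold in 238 with HSP70 and 242 with YB-1, the exceptions being Ugt8a. These values share libraries and are not separate checks. Some refits left out a library of the other treatment, which is not in the group means compared and hardly moves them. The HSP70 median of the 9, for example, stayed at 1.42 without cortical YB-1 replicate 1. No myelin gene was called between treatments or in the interaction under any alternative. The number of all genes called between treatments in the cortex, 0, was 9 with no filter, 4 with DESeq2, 1 with limma-voom, 1 after thinning and 0 to 1 when 1 library was left out (1 without HSP70 replicate 3). In the cortex Mag was at -0.0199 with limma-voom and Mal at 0.056 after thinning. Leaving out 1 library gave -0.25 to 0.062 for Cnp in the hippocampus, -0.022 to 0.29 for Mobp, -0.14 to 0.044 for Mal and -0.13 to 0.064 for Cldn11 in the cortex, and -0.18 to 0.041 for Car2 and -0.0101 to 0.38 for Ugt8a in the interaction. The correlation of Ugt8a between tissues over animals, 0.42, was -0.17 without the 2 animals farthest from the median. The cause of these changes was not tested. With the animal as a replicate block, 1777 genes were called between tissues with HSP70 (1259 without it) and 1224 with YB-1 (952 without it), and 0 in the interaction. A block on replicate number, which the check of pairing did not support between treatments, gave 0 in either tissue. Ugt8a had the fewest reads, 21 to 284 a library, and after thinning it was still called between tissues in both treatments (adjusted p = 0.0365 and 0.0281 in edgeR).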
